A study of Danio rerio with 170 samples.

Results

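The direct comparison of PFAS 8 with PFAS 9 asked which transcripts differed between zebrafish embryos given one or the other of a pair of fluorinated chemicals. PFAS 8 is 1H,1H,11H,11H-perfluorotetraethylene glycol, a fluorinated polyether with an alcohol at each end, and PFAS 9 is 2,2,3,3-tetrafluoropropyl acrylate, a short fluorinated acrylate ester. The members are the 4 PFAS 8 and the 4 PFAS 9 libraries of Exposure Round 1. They are 8 of the 70 libraries of both exposure rounds and 8 of 100 in the whole series. Embryos of both rounds were collected at 48 hours post fertilization (hpf). Embryos of the Tropical 5D wild-type strain were freed of their chorions at 4 hpf and kept in the dark in 96-well plates. From 6 hpf they were held without renewal in 53 µM PFAS 8 or 62 µM PFAS 9, in medium with 1% dimethyl sulfoxide (DMSO). The 6 libraries of Control-A, from the same round, had the DMSO alone. Each library was made from the RNA of 10 whole embryos pooled at 48 hpf, and reads were counted at the 3′ ends of transcripts. Because the concentrations differed, an effect of the chemical and an effect of its dose cannot be told apart in any comparison of the pair. A difference in a whole-embryo pool may also come from fewer cells of a type or from less RNA in each cell, and these cannot be told apart.

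Zebrafish embryos at this age have begun to move and hatch, and several of their organs work while others are still forming. Ionocytes of the skin take up sodium, chloride and calcium from fresh water, driven by the sodium pump (the Na+/K+-ATPase). Primitive red blood cells carry embryonic hemoglobins, fast and slow muscle fibres fill the trunk, and a hatching gland on the yolk secretes the proteases that soften the chorion.

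The 8 libraries held about 15040000 to 30360000 counted reads each, and the difference between the groups in this total was within their spread (two-sided exact permutation test, p = 0.714, smallest possible p = 0.0286). A single gene, ENSDARG00000080337, took 22.6 to 27.1% of the counts (exact permutation p = 0.371). Genes whose symbol begins with mt- took 1.99 ± 0.139% in PFAS 8 and 2.17 ± 0.217% in PFAS 9 (SD, n = 4 each, exact permutation p = 0.257). That share leaves out ENSDARG00000080337 and any mitochondrial gene without such a symbol, so it is not the whole mitochondrial share. Replicates of a group correlated at 0.977 to 0.987 across 7840 of the more highly expressed genes, and no pair within a group was identical. Collection days differed between the groups. PFAS 8 replicates 1 and 2 came from days 1 and 4, with replicates 3 and 4 from day 5, while PFAS 9 replicate 1 came from day 4, replicates 2 and 3 from day 5 and replicate 4 from day 6. Each Control-A library came from a different collection day. Among them, Control-A replicate 5 stood apart. Its summed level of liver, gut and pancreas markers was 469.7 CPM, against 1353 to 1443 CPM in the other 5 controls. Some values against control are therefore also given without it. It was the control of day 4, the day of PFAS 8 replicate 2 and PFAS 9 replicate 1. Leaving it out thus removes the control of that day, and whether the day accounts for its levels was not tested.

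Of 21928 genes tested, 292 differed between PFAS 8 and PFAS 9 at an adjusted p below 0.05 (1.33% of genes tested, edgeR quasi-likelihood test with Benjamini-Hochberg adjustment). These are referred to below as called, and 2448 genes (11.2%) had an unadjusted p below 0.05. Called genes higher in PFAS 8 included 4 of 20 on the sodium pump list, 7 of 33 on the ionocyte list, 7 of 29 on the erythroid list and the cholesterol transporter ABCA1, while those higher in PFAS 9 included 7 of 9 tested cathepsin L genes of a neighbouring row, the hatching enzymes he1.1 and he1.2, the fast muscle troponin TNNI2 and the peroxiredoxin prdx1. Expression was higher in PFAS 8 for 193 called genes (0.88% of genes tested) and higher in PFAS 9 for 99 (0.451%). When libraries were scaled to their totals alone, without a scaling factor, 393 genes were called and the split turned to 123 higher in PFAS 8 and 270 higher in PFAS 9, so that 31.3% rather than 66.1% of calls were higher in PFAS 8. That scaling moved the median log2 fold change of all genes from -0.003 to -0.074. Most called differences were modest, with a median absolute log2 fold change of 0.61. Of the 292 genes, 137 differed by less than 1.5-fold and 83 had an absolute log2 fold change over 1, of which 57 were higher in PFAS 8 and 26 in PFAS 9. The normalized counts of the 4 and the 4 libraries did not overlap for 252 of the called genes and overlapped for 40, and over all genes tested they did not overlap for 1381 (6.3%). Single libraries moved the count. It was 153 without PFAS 9 replicate 3 and 194 without PFAS 8 replicate 4, and with the libraries of shared collection days alone it was 180, while a fit of the round with collection day as a block gave 276.

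**Figure D1:**
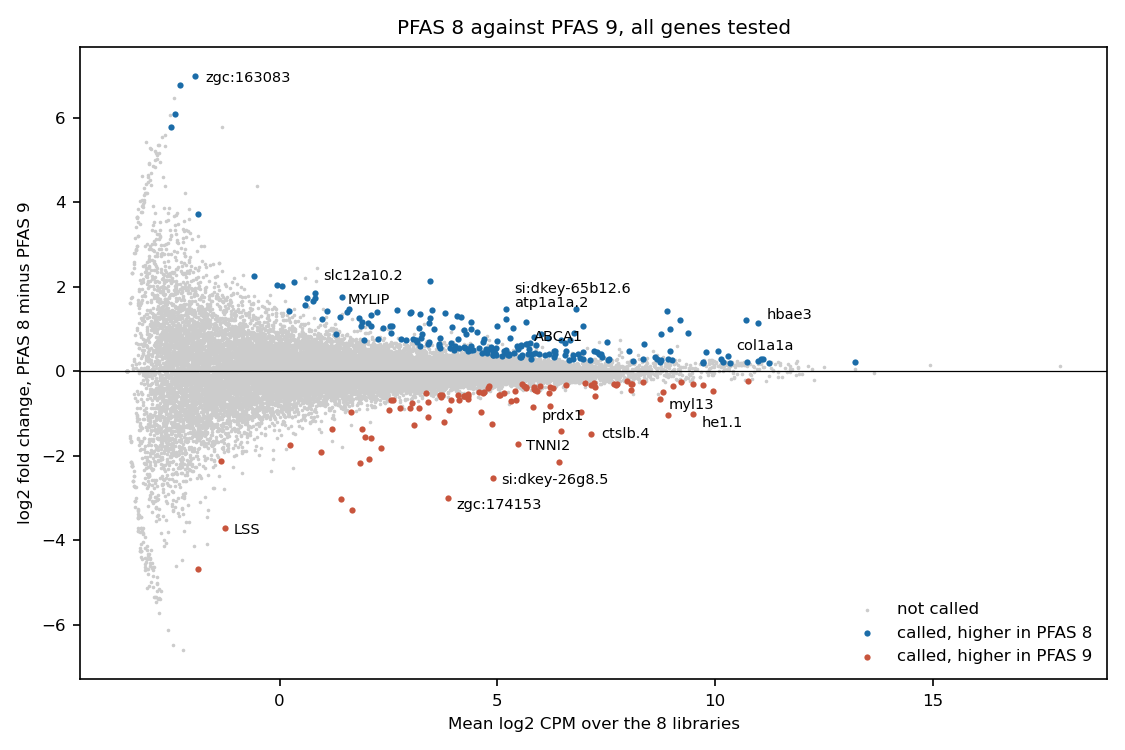
Log2 fold change of PFAS 8 minus PFAS 9 (y axis) against the mean log2 CPM over the 8 libraries (x axis), 1 point per gene tested. The 292 called genes are coloured by direction, 193 higher in PFAS 8 and 99 higher in PFAS 9, and most sit within 1 log2 unit of 0.

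In the following, levels are CPM, the counts of a gene relative to its library's total count after scaling by the trimmed mean of M values, given for replicates 1 to 4 in order. Log2 fold changes are PFAS 8 minus PFAS 9 with their standard error, and each adjusted p comes from the edgeR fit named above. The standard error is approximate, the absolute log2 fold change over the square root of the test's F statistic. Intervals given below are built from it. Gene symbols are those of the table that pairs Ensembl identifiers with names, where capital letters mark the name of a human counterpart that several zebrafish genes may share.

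Of the sodium pump genes, 4 of 20 tested were called, all of them higher in PFAS 8. The neighbouring genes atp1a1a.2, atp1a1a.3 and atp1a1a.4 encode alpha-1 subunits, the part of the pump that hydrolyses ATP. atp1a1a.2 (ENSDARG00000007739) was at 58.1, 53.7, 64.2 and 51 CPM in PFAS 8 and at 26.1, 27.6, 17.3 and 25.9 CPM in PFAS 9. Each PFAS 8 library was above each PFAS 9 library, the control libraries lay between them at 28.3 to 41.9 CPM, and the log2 fold change was 1.23 ± 0.11 (adjusted p = 2.43e-13), the smallest adjusted p of all genes. For atp1a1a.4 (ENSDARG00000001870), the levels were 104, 97.9, 87.7 and 85 CPM in PFAS 8, 50.8, 64.1, 52.2 and 51.3 CPM in PFAS 9 and 62.6 to 79.95 CPM in control. Again no library crossed over, and the difference was 0.78 ± 0.09 (adjusted p = 8.08e-09). The lower-level atp1a1a.3 ran at 15.4, 13.7, 13.9 and 9.83 CPM in PFAS 8 and 5.41, 4.67, 8.83 and 7.08 CPM in PFAS 9, a difference of 1.04 ± 0.21 (adjusted p = 0.00188). The beta subunit gene ATP1B1 (ENSDARG00000076833), whose protein carries the alpha subunit to the membrane, stood at 44.8, 44.2, 52.4 and 41.5 CPM in PFAS 8 and 19, 24.6, 22.6 and 21.4 CPM in PFAS 9, again without overlap, and differed by 1.06 ± 0.13 (adjusted p = 1.08e-08). The count of called genes on the list stayed at 4 when any of the 8 libraries was left out. Over the list the median log2 fold change was 0.15, against -0.003 over all genes. The fourth tested gene of the alpha-1 neighbourhood, atp1a1a.5, was at 2.15 CPM or less in each of the 8 libraries and was not called. A pair of FXYD proteins that bind and tune the pump also differed. These were fxyd11, the form known from fish skin and gill (0.88 ± 0.13, adjusted p = 7.57e-06), and fxyd2 (0.79 ± 0.15, adjusted p = 0.000395), both chosen after their values were seen.

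Several transcripts on the ionocyte list differed in the same direction. Of 33 tested genes on the ionocyte list, 7 were called, all 7 higher in PFAS 8, and the median log2 fold change was 0.68. RHBG (ENSDARG00000009018), an ammonium transporter of the Rh family, was at 44.6, 35.8, 39.2 and 43.8 CPM in PFAS 8 and 25.1, 21.2, 22.3 and 30.9 CPM in PFAS 9. The groups did not overlap (0.72 ± 0.12, adjusted p = 5.77e-05), and the PFAS 8 libraries lay within the control range of 34.9 to 45.7 CPM. slc12a10.2, a sodium-chloride cotransporter of the ionocytes that take up both ions, had 3.58, 2.07, 3.97 and 3.9 CPM in PFAS 8 and 0.384, 1.54, 0.669 and 1.16 CPM in PFAS 9 (1.86 ± 0.37, adjusted p = 0.00131). KCNJ1 (ENSDARG00000090866), an inwardly rectifying potassium channel, had 7.05, 4.21, 3.97 and 4.58 CPM and 1.79, 1.58, 1.87 and 1.87 CPM (1.48 ± 0.29, adjusted p = 0.000777). All of these are low levels, yet each PFAS 8 library exceeded each PFAS 9 library in both genes. STC1, stanniocalcin, the hormone that restrains calcium uptake in fish, was at 11.7, 13.9, 6.8 and 10.9 CPM in PFAS 8 and 4.97, 3.2, 3.43 and 4.25 CPM in PFAS 9 (1.45 ± 0.28, adjusted p = 0.000926). The epithelial calcium channel TRPV6 differed by 1.75 ± 0.40, the chloride channel clcn2c by 2.05 ± 0.50 and the anion exchanger SLC4A1, which red cells express as well, by 1.04 ± 0.22. In PFAS 9, SLC4A1 stood at 21.1, 26.1, 29.3 and 40.8 CPM, lowest in replicate 1 and highest in replicate 4, like the alpha globins described next. The 7 calls thus include a hormone gene, STC1, and a gene shared with red cells. Summed over the list, STC1 and SLC4A1 included, levels were 464, 424, 457 and 414 CPM in PFAS 8. They were 335, 356, 340 and 363 CPM in PFAS 9, against 382 to 464 CPM in control. Leaving out PFAS 8 replicate 2, PFAS 9 replicate 3 or PFAS 9 replicate 4 ended the call of clcn2c (log2 fold changes of 1.85 to 2.01), and the list then held 6 or 7 called genes.

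Embryonic alpha globins and some other erythroid transcripts were lower in PFAS 9. hbae3 (ENSDARG00000079305), an embryonic alpha globin, was at 3427, 2849.6, 3336 and 2658 CPM in PFAS 8 and 928, 1284, 1379.7 and 1982 CPM in PFAS 9. All PFAS 8 libraries were above all PFAS 9 libraries (1.14 ± 0.19, adjusted p = 4.17e-05). Control libraries spread over 1608 to 3844 CPM. Only Control-A replicate 5, the lowest, fell within the PFAS 9 range, and the next lowest control was at 2020 CPM. PFAS 9 minus control was -1.0 with all 6 controls (adjusted p = 3.01e-05, edgeR). Without replicate 5, the control of day 4, it was -1.115 (adjusted p = 1.69e-06, edgeR). hbae1.2 (ENSDARG00000088330) was steady in PFAS 8 at 893, 894, 914 and 904 CPM and more scattered in PFAS 9 at 271, 393, 362 and 525 CPM (1.22 ± 0.19, adjusted p = 1.34e-05). Its neighbour hbae1.1 was at 818, 649.7, 884 and 555 CPM and 236, 345, 420.2 and 452 CPM (1.0 ± 0.20, adjusted p = 0.00123), and the third, hbae1.3, differed by 0.9 ± 0.19. Within the PFAS 9 group, replicate 1 was the lowest and replicate 4 the highest library for each of these 4 globins. The enzymes of the red cell differed as well. alas2, which catalyses the first step of heme synthesis in red cells, was at 39.2, 23.5, 26.6 and 24.4 CPM in PFAS 8 and 8.04, 11.2, 11.9 and 16 CPM in PFAS 9 (1.29 ± 0.27, adjusted p = 0.00217). nt5c2l1, a cytosolic nucleotidase, was at 9.52, 6.71, 8.96 and 5.66 CPM and 1.95, 3.4, 3.48 and 2.83 CPM (1.41 ± 0.28, adjusted p = 0.00128), and cahz, the carbonic anhydrase of red cells, differed by 0.93 ± 0.22 and lost its call without PFAS 8 replicate 1 (0.80, adjusted p = 0.0861) or PFAS 9 replicate 3 (0.91, adjusted p = 0.0569).

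The erythroid list thus held 7 called genes of 29, all higher in PFAS 8, with a median log2 fold change of 0.66, and 6 to 8 genes were called when single libraries were left out. Its summed level was 6754, 5956, 6848 and 5623 CPM in PFAS 8 and 2198, 2879, 3119 and 4343 CPM in PFAS 9, with 3109 to 7085 CPM in control. The lowest control was again Control-A replicate 5, and the next lowest was at 4324 CPM. Beta-like globin genes named HBE1 after their human counterpart, chosen after their values were seen, showed the same separation, at 1.48 ± 0.21 for ENSDARG00000045143, 1.42 ± 0.21 for ENSDARG00000115405 and 1.21 ± 0.19 for ENSDARG00000087390. A further HBE1 gene, ENSDARG00000097238, had no count in any PFAS 9 library and 50 in total over the PFAS 8 libraries, 1 of which had none, which is at least 19-fold higher in PFAS 8 when 3 counts over the group are taken as the floor. Its call was lost without any of 4 libraries, PFAS 8 replicate 4 and PFAS 9 replicates 1, 2 and 3. Globin genes are near copies of each other and reads that map to several places were not counted, so the levels of single globin genes are uncertain.

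ABCA1 and MYLIP, genes of cholesterol efflux and lipoprotein handling, were higher in PFAS 8. ABCA1 (ENSDARG00000074635), the transporter that loads cholesterol onto apolipoproteins, was at 83.8, 61.5, 77.1 and 80.3 CPM in PFAS 8, 34.2, 31, 30.9 and 39.4 CPM in PFAS 9 and 30.3 to 36.6 CPM in control. Of the PFAS 9 libraries 3 were within the control range and 1 just above it, and every PFAS 8 library lay above both groups (1.16 ± 0.11, adjusted p = 5.49e-13). MYLIP (ENSDARG00000008859), a ubiquitin ligase that marks lipoprotein receptors for degradation, was at 12.65, 13.8, 14.8 and 10.8 CPM in PFAS 8 and 4.93, 4.4, 5.71 and 4.57 CPM in PFAS 9, with 4.35 to 6.62 CPM in control. PFAS 9 was within the control range and PFAS 8 above it (1.41 ± 0.23, adjusted p = 2.22e-05). In mammals both genes are targets of the liver X receptor, a sensor of oxidized cholesterol. These and apoea, an apolipoprotein E gene, were the 3 called of 57 genes on the list of lipid transport and droplets, whose median log2 fold change was 0.07. The apoea call (0.9 ± 0.25, adjusted p = 0.0469) was lost without each of the 8 libraries except PFAS 8 replicate 2, and in 16 of 29 alternatives in all. Of 40 genes of fatty acid oxidation, UCP1, a mitochondrial uncoupling protein, and PDK2, a kinase that turns off pyruvate dehydrogenase, were called. UCP1 (ENSDARG00000023151) was at 31.1, 25.7, 20.4 and 29.7 CPM in PFAS 8 and 12.4, 7.91, 10.35 and 12.3 CPM in PFAS 9 without overlap (1.32 ± 0.24, adjusted p = 0.000219). PDK2 differed by 0.75 ± 0.20 and lost its call when PFAS 8 replicate 3 or 4 or PFAS 9 replicate 1, 2 or 3 was left out (0.62 to 0.75). Lysosomal genes, picked after their values were seen, went both ways. The cathepsin L gene ctsla (0.88 ± 0.16) and the phospholipase PLA2G15 (0.82 ± 0.18, but 0.61 with an adjusted p of 0.084 without PFAS 8 replicate 1) were higher in PFAS 8. The proteases CTSH (-0.91) and CTSD (-0.52) were higher in PFAS 9. CTSH lost its call without PFAS 8 replicate 3 (-0.78, adjusted p = 0.0836), and CTSD lost its call without any of 5 libraries, PFAS 8 replicates 2, 3 and 4 and PFAS 9 replicates 1 and 2 (-0.52 to -0.43).

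**Figure D2:**
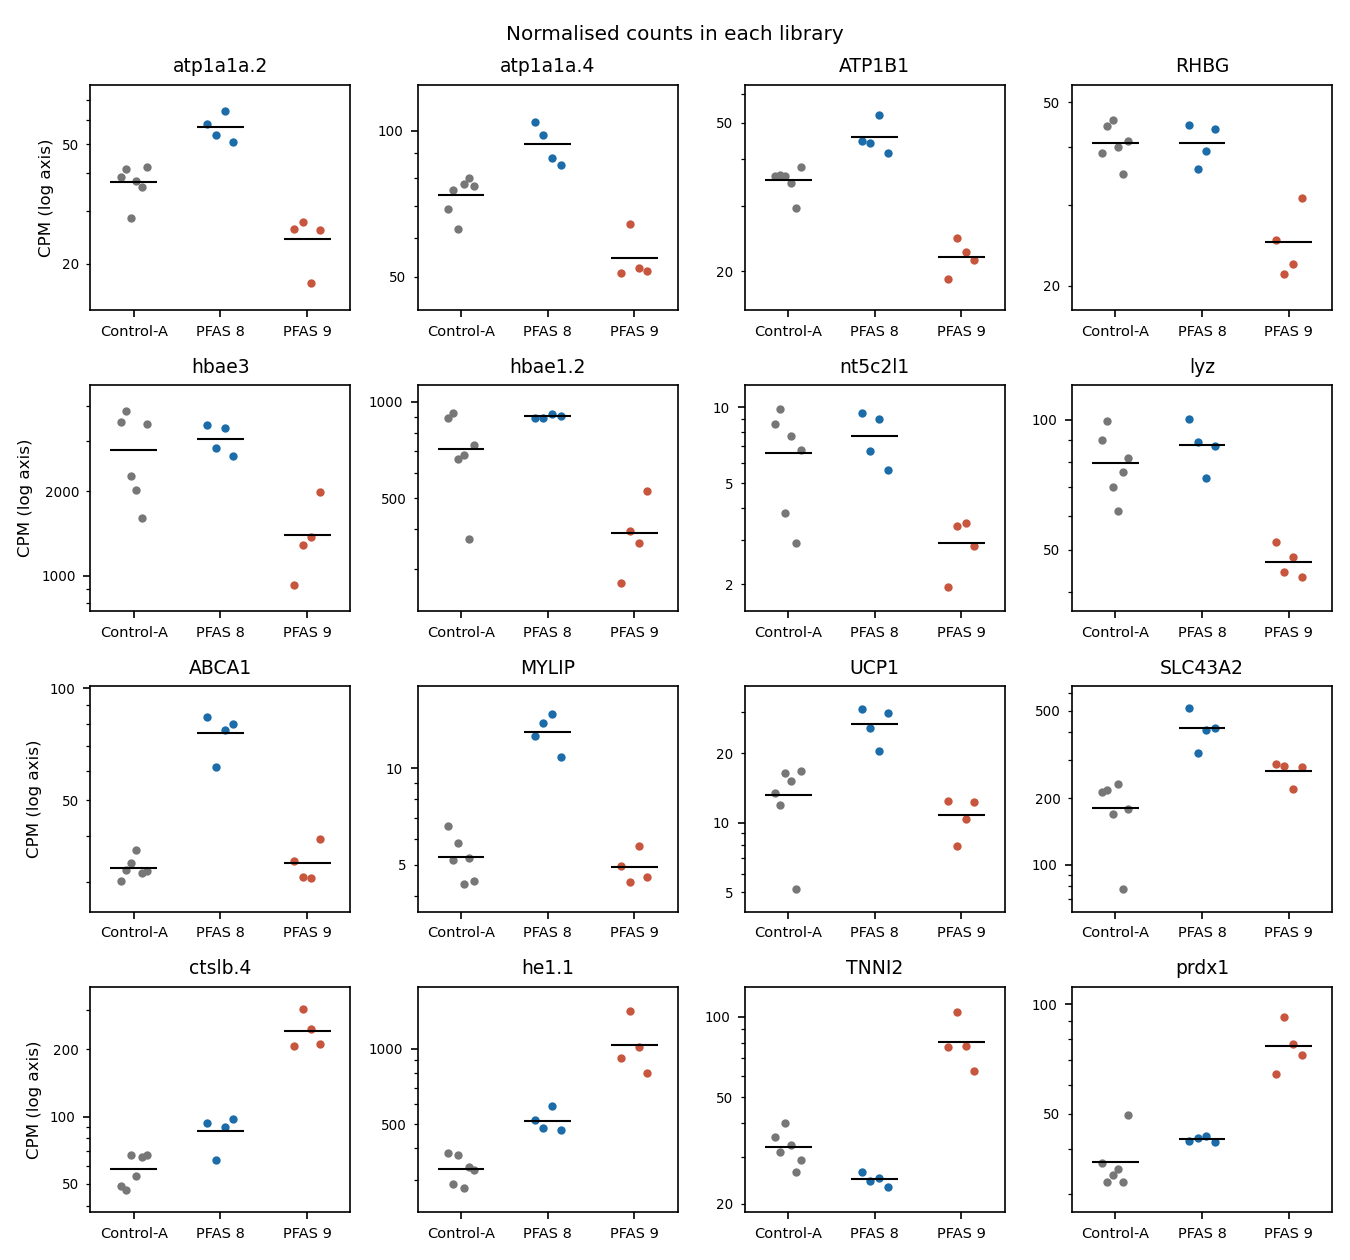
Normalized counts (CPM, log axis) of 16 genes in each Control-A, PFAS 8 and PFAS 9 library, 1 point per library. PFAS 8 points sit above PFAS 9 points for the first 12 genes, from the sodium pump to SLC43A2, and below them for ctslb.4, he1.1, TNNI2 and prdx1.

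Skeletal muscle transcripts differed in both directions. Of 98 tested genes of the sarcomere list, 17 were called, 7 higher in PFAS 8 and 10 higher in PFAS 9, and the median log2 fold change was 0.00. TNNI2 (ENSDARG00000035958), an inhibitory troponin of fast muscle, was at 26.3, 24.3, 25 and 23 CPM in PFAS 8, 76.9, 104, 77.8 and 62.9 CPM in PFAS 9 and 26.3 to 40.2 CPM in control. Every PFAS 9 library was above every PFAS 8 library (-1.71 ± 0.17, adjusted p = 1.6e-11). myl13, a myosin light chain, was at 342, 365, 315 and 342 CPM in PFAS 8 and 502, 599, 551 and 485 CPM in PFAS 9 (-0.65 ± 0.08, adjusted p = 6.88e-08). The troponin T gene tnnt2c (-0.96), the tropomyosins TPM2 (-0.44) and tpm3 (-0.3), the calcium-binding SRL (-0.59), the myosin heavy chains myhz1.3 (-0.47) and smyhc1 (-0.35), myl10 (-0.48) and HHATL (-0.52) were also higher in PFAS 9. On the other side, atp2a1l (ENSDARG00000035458), a calcium pump of the sarcoplasmic reticulum, was at 201, 172, 183 and 179 CPM in PFAS 8 and 101, 100.3, 64.4 and 83.6 CPM in PFAS 9 (1.07 ± 0.15, adjusted p = 9.75e-07), with all PFAS 8 libraries on top. ENO3, the muscle enolase, was at 639.8, 618, 574 and 555 CPM in PFAS 8 and 415, 469, 405 and 411 CPM in PFAS 9 (0.49 ± 0.08, adjusted p = 1.34e-05). The glycolytic enzyme GAPDH (0.45), the AMP deaminase AMPD1 (0.6), igfn1.3 (1.16), the actin ACTA1 (0.48) and the parvalbumin pvalb1 (0.23), which buffers calcium, completed the genes higher in PFAS 8. Summed sarcomere transcripts overlapped between the groups, at 63410 to 69560 CPM in PFAS 8 and 60690 to 65450 CPM in PFAS 9. The count on the list ranged from 14 to 18 with single libraries left out, and ACTA1, pvalb1 and HHATL lost their calls without at least 1 of the 8 libraries.

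Heart muscle genes leaned to PFAS 8, with 20 of 25 tested log2 fold changes above 0 and a median of 0.36, but a single gene was called. MYH7 (ENSDARG00000079782), a myosin heavy chain named after that of the human ventricle, was at 30.2, 33.1, 38.2 and 32.9 CPM in PFAS 8 and 19.8, 20.4, 18.6 and 20.8 CPM in PFAS 9 (0.76 ± 0.11, adjusted p = 3.43e-06). The highest PFAS 9 library was below the lowest PFAS 8 library. MYH6 (ENSDARG00000079564), a myosin heavy chain that was not on the list and was picked after its value was seen, differed by 0.57 ± 0.10.

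Large differences in favour of PFAS 9 came from a row of neighbouring cathepsin L genes, members of a family of cysteine proteases. Not all cathepsin L genes went this way. ctsla, which lies outside the row, was higher in PFAS 8 (0.88 ± 0.16), at a mean of 594 CPM against 323 CPM in PFAS 9. The run was picked after its values were seen and is defined by gene order in the RefSeq annotation of the GRCz12tu assembly, from ctslb.4 to zgc:174153. It spans 21 annotated genes, of which 17 are protein coding, 10 are in the count table and 9 were tested. All 9 log2 fold changes were below 0, and 7 genes were called. ctslb.4 (ENSDARG00000100833) was at 93.8, 64.1, 90.03 and 97.6 CPM in PFAS 8, 206, 301, 246 and 211 CPM in PFAS 9 and 47.1 to 67.1 CPM in control (-1.48 ± 0.21, adjusted p = 1.26e-06). si:dkey-239j18.3 was at 51.9, 45.4, 59.7 and 63.5 CPM and 124, 192, 147 and 122 CPM (-1.41 ± 0.19, adjusted p = 2.46e-07), and in both genes every PFAS 9 library was above every PFAS 8 library. si:dkey-26g8.5 was at 7.47, 10.298, 16.7 and 16.7 CPM in PFAS 8 and 67.5, 76.7, 85.8 and 61.1 CPM in PFAS 9 (-2.52 ± 0.37, adjusted p = 3.48e-06). zgc:174153 was at 4.84, 1.87, 9.26 and 7.27 CPM in PFAS 8 and 32.4, 78.1, 44.2 and 28.2 CPM in PFAS 9 (-3.01 ± 0.47, adjusted p = 1.46e-05). The low-level si:dkey-239j18.2 differed by -3.29 ± 0.66, si:dkey-269i1.4 by -1.21 ± 0.23 and zgc:174855 by -0.96 ± 0.25. The last of these overlapped between groups and lost its call without PFAS 8 replicate 2, 3 or 4 or PFAS 9 replicate 3 (-0.98 to -0.76). The members not called were zgc:174154 (-0.76) and ctslb (-0.80), the latter also named hatching gland gene 1 in RefSeq. Against the shared controls, 8 of the 9 genes were called higher in PFAS 9 and 0 in PFAS 8 (3.06% and 2.1% of all genes tested). In PFAS 8 all 9 log2 fold changes lay between 0.26 and 1.83 with adjusted p values of 0.0519 and above (edgeR). Sequences of the family are alike and reads with several best positions were not counted, so how reads were divided among the copies is uncertain.

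**Figure D3:**
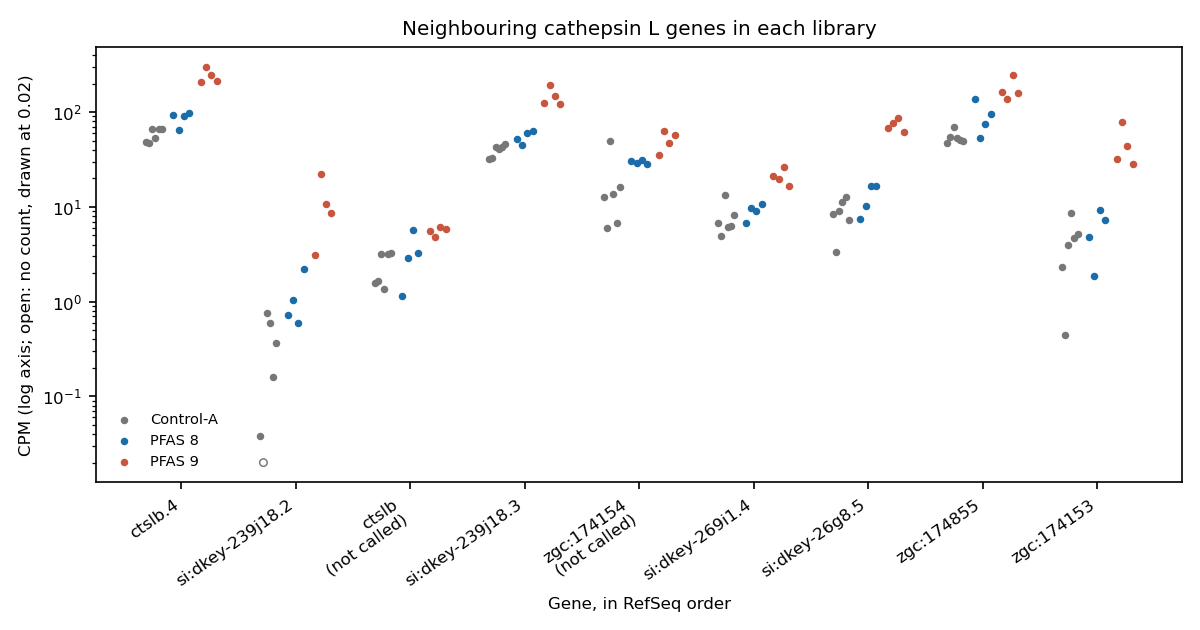
Normalized counts (CPM, log axis) of the 9 tested genes of the cathepsin L run in RefSeq order, 1 point per Control-A, PFAS 8 and PFAS 9 library, with libraries without a count drawn open at 0.02. PFAS 9 points lie above all PFAS 8 points in 6 of the 7 called genes and overlap with them in zgc:174855.

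Hatching enzymes, the astacin metalloproteases that digest the chorion, were higher in PFAS 9 as well and were also picked after their values were seen. he1.1 (ENSDARG00000023656) was at 518, 484, 591 and 474 CPM in PFAS 8, 917, 1418, 1019 and 803 CPM in PFAS 9 and 277 to 383 CPM in control. The groups followed one another without overlap, with control lowest and PFAS 9 highest (-1.01 ± 0.19, adjusted p = 0.000442). he1.2 was at 472, 287, 336 and 318 CPM in PFAS 8 and 752, 1141, 524 and 475 CPM in PFAS 9 (-1.03 ± 0.21, adjusted p = 0.00196). PFAS 9 replicate 2 was the highest library in both genes, and without it the log2 fold change of he1.2 was -0.72 with an adjusted p of 0.0794. The third gene of the row, he1.3, was below 1 CPM in each library. hce2l2, a relative of the same family, had 0.876, 0.78, 1.2 and 0.943 CPM in PFAS 8 and 3.43, 4.21, 3.08 and 3.47 CPM in PFAS 9 (-1.91 ± 0.35, adjusted p = 0.000321). Here PFAS 9 lay within the control range of 1.78 to 4.75 CPM and all PFAS 8 libraries below it.

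A few transcripts of redox enzymes and chaperones were higher in PFAS 9, while the secreted glutathione peroxidase gpx3, described further below, was higher in PFAS 8. prdx1 (ENSDARG00000058734), a peroxiredoxin that reduces hydrogen peroxide, was at 42.1, 42.8, 43.3 and 41.7 CPM in PFAS 8, 64.3, 92.2, 77.5 and 72.3 CPM in PFAS 9 and 32.4 to 49.7 CPM in control. No PFAS 8 library reached a PFAS 9 library (-0.85 ± 0.15, adjusted p = 0.000135). TXN, thioredoxin, was at 189, 184, 179.9 and 200.5 CPM in PFAS 8 and 220.2, 258, 229 and 241 CPM in PFAS 9, and the difference of -0.33 ± 0.08 (adjusted p = 0.0111) became -0.29 with an adjusted p of 0.0717 without PFAS 9 replicate 2. prdx1 and TXN were the 2 called of 50 genes on the list of glutathione and NRF2 targets, which had a median log2 fold change of -0.12. Of 45 heat shock genes, 3 were called, with a median of -0.11. Summed heat shock transcripts overlapped between the groups, at 4649 to 5665 CPM in PFAS 8 and 4517 to 4964 CPM in PFAS 9. hsp90aa1.1 (ENSDARG00000010478), the Hsp90 of striated muscle in zebrafish, was at 53.2, 55.4, 66.3 and 53.5 CPM in PFAS 8 and 71.1, 103, 147 and 80.2 CPM in PFAS 9 (-0.81 ± 0.14, adjusted p = 0.000138). SMYD1 (-0.91), which works with it in the assembly of myosin, and the chaperone hsc70 (-0.64) overlapped between the groups and lost their calls with single libraries left out, so that 1 gene was called on the list without PFAS 9 replicate 3. A few proteasome genes, picked from the called genes after their values were seen, were slightly higher in PFAS 9. These were the subunits PSMA5 (-0.45), PSMD14 (-0.35) and PSMA2 (-0.28) and the assembly factor POMP (-0.32). Each lost its call without at least 1 of the 8 libraries. Other proteasome genes were not counted, so no direction of the family is read from these. Of 33 genes of endoplasmic reticulum chaperones, 0 were called by edgeR or DESeq2 and 2 had an unadjusted p below 0.05. The single called gene of 41 on the list of the integrated stress response was WARS1, a tryptophan tRNA synthetase (-0.56), and it lost the call without any of 6 of the 8 libraries.

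Genes of innate immune cells went both ways. Of 68 tested, 5 were called, 3 higher in PFAS 8 and 2 higher in PFAS 9, with a median log2 fold change of -0.15. lyz (ENSDARG00000057789), the lysozyme of neutrophils and macrophages, was at 100.2, 88.7, 73.5 and 86.9 CPM in PFAS 8, 52.1, 44.3, 48.1 and 43.3 CPM in PFAS 9 and 61.4 to 99.2 CPM in control. The groups did not overlap (0.89 ± 0.14, adjusted p = 1.74e-05). npsn, a metalloprotease of neutrophils, was at 8.65, 9.17, 6.49 and 8.01 CPM in PFAS 8 and 4.36, 6.33, 2.9 and 3.67 CPM in PFAS 9 (0.9 ± 0.21, adjusted p = 0.0101), but without PFAS 9 replicate 3 it differed by 0.75 with an adjusted p of 0.115. MFAP4, named for a microfibril-associated protein and used as a macrophage marker in zebrafish, differed by 0.99 ± 0.25 and lost its call without PFAS 8 replicate 1 (0.93, adjusted p = 0.0668), PFAS 9 replicate 2 (0.98, adjusted p = 0.0533) or PFAS 9 replicate 4 (0.96, adjusted p = 0.0572). The protease genes ctss2.1, a cathepsin S, and MMP9, a gelatinase, were called higher in PFAS 9. ctss2.1 was at 3.58, 2.34, 2.95 and 2.76 CPM in PFAS 8 and 5.13, 23, 5.89 and 7.14 CPM in PFAS 9, and MMP9 was at 2.44, 2.3, 0.962 and 2.42 CPM and 5.61, 20.5, 8.65 and 1.67 CPM. PFAS 9 replicate 2 was far above the rest for each of them, and the other 3 PFAS 9 libraries were above every PFAS 8 library for ctss2.1 but not for MMP9. With it the log2 fold changes were -1.82 ± 0.38 (adjusted p = 0.00201) and -2.16 ± 0.51 (adjusted p = 0.0102), and without it they were -1.05 (adjusted p = 0.192) and -1.39 (adjusted p = 0.224), and the list then held 2 called genes. MMP9 also lost its call without PFAS 8 replicate 3 (-1.94, adjusted p = 0.057).

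Some transcripts of cartilage and bone matrix were higher in PFAS 8. COL10A1 (ENSDARG00000054753), the collagen of hypertrophic cartilage and early bone, was at 16.3, 15.5, 10.6 and 11 CPM in PFAS 8, 7.34, 5.75, 2.19 and 5.08 CPM in PFAS 9 and 17.3 to 31.5 CPM in control. All 8 libraries lay below the control range, and all PFAS 9 libraries below all PFAS 8 libraries (1.38 ± 0.23, adjusted p = 7.14e-05). Of 49 genes on the cartilage and tooth matrix list, 9 were called and all 9 were higher in PFAS 8, with a median log2 fold change of 0.25. The other 8 were epyc (0.35), a small proteoglycan, a pair of matrilin genes named MATN3 (0.7 and 0.51), and the fibril collagens col9a1b (0.3), COL9A1 (0.44), col9a3 (0.34), COL9A2 (0.24) and COL11A1 (0.19). The count depended on single libraries. It was 2 without PFAS 8 replicate 2, 3 without PFAS 9 replicate 3, 4 without PFAS 8 replicate 4 or PFAS 9 replicate 2, and 6 without PFAS 8 replicate 1 or PFAS 9 replicate 4. Scaling by totals alone ended the calls of col9a1b, COL9A1, col9a3, COL9A2, COL11A1 and the MATN3 gene at 0.7 (adjusted p = 0.0526 to 0.277, edgeR). COL10A1, epyc and the other MATN3 gene kept theirs. Summed, the list stood at 4493, 4878, 4519 and 4734 CPM in PFAS 8 and at 4100, 3982, 4055 and 4039 CPM in PFAS 9, and control libraries had 4415 to 4832 CPM. Of the type I collagens, col1a1a was at 1439.6, 1493, 1379 and 1412 CPM in PFAS 8 and 1115, 1043, 1094 and 1209 CPM in PFAS 9, a small difference that exceeded the spread (0.36 ± 0.05, adjusted p = 3.48e-06), and COL1A1 differed by 0.22 ± 0.06 but lost its call without any of 6 libraries. COL1A1 also lost it when scaled by totals alone (adjusted p = 0.255, edgeR).

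Genes of ribosomes leaned to PFAS 8. Of 84 cytosolic ribosomal protein genes, 80 had log2 fold changes above 0, with a median of 0.19, and 7 were called, all higher in PFAS 8. Summed over the list, levels were 121400, 119100, 104000 and 109800 CPM in PFAS 8 and 99480, 110400, 95770 and 94220 CPM in PFAS 9. The groups thus overlapped, with PFAS 9 replicate 2 above PFAS 8 replicates 3 and 4, and control had 89550 to 100700 CPM. The smallest adjusted p among the 7 called genes was that of RPLP1, of the ribosomal stalk, at 2509.6, 2351, 2226 and 2258 CPM in PFAS 8 and 1914, 2044, 1840.5 and 1854 CPM in PFAS 9 (0.29 ± 0.07, adjusted p = 0.0146). The count of called ribosomal protein genes was 0 without PFAS 9 replicate 3 or 4, 1 without PFAS 8 replicate 1 or 2, 2 without PFAS 8 replicate 4, 3 without PFAS 9 replicate 1 and 12 without PFAS 8 replicate 3, and scaling by totals alone ended the calls of each of the 7. Against the shared controls, 64 of the 84 were called higher in PFAS 8 and 2 in PFAS 9, with median log2 fold changes of 0.26 and 0.08. Of all genes tested, 2.1% and 3.06% were called higher. Of 11 elongation factor genes, eef1da (0.41 ± 0.08, adjusted p = 0.000926) and EEF1G (0.28 ± 0.06, adjusted p = 0.00702) were called. Some factors that build ribosomal subunits were also called higher in PFAS 8. They were picked from the called genes after their values were seen. Other such factors were not counted, so no direction of the family is read from them. NSA2 (ENSDARG00000007708) was at 334, 318, 291 and 277 CPM in PFAS 8 and 227, 230.1, 223 and 196 CPM in PFAS 9 (0.48 ± 0.07, adjusted p = 4.54e-06), with RSL24D1 (0.47), GTPBP4 (0.42), DDX21 (0.49) and nop53 (0.32) also called. NSA2 kept its call in all 29 alternatives, and each of the other 4 lost it without at least 1 library.

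Genes of cell division leaned to PFAS 9. Of 82 tested, 70 had a log2 fold change below 0, with a median of -0.21, and 2 were called. PCNA, the sliding clamp of DNA replication, was at 262, 255, 239.9 and 223 CPM in PFAS 8 and 293, 317, 305 and 299 CPM in PFAS 9 (-0.31 ± 0.08, adjusted p = 0.0348). bub1bb, a kinase of the spindle checkpoint, was at 14.3, 13.7, 13.5 and 14.3 CPM and 20.3, 20.6, 22.7 and 18.34 CPM (-0.56 ± 0.14, adjusted p = 0.0142). The counts were 0 without PFAS 9 replicate 3, 4 without PFAS 9 replicate 1, and 1 without PFAS 8 replicate 3 or 4 or PFAS 9 replicate 2. The summed level was 3108 to 3250 CPM in PFAS 8, 3476 to 3712 CPM in PFAS 9 and 2578 to 2780 CPM in control, so that the 3 groups did not overlap. Against control, 42 of the 82 genes were called higher in PFAS 9 and 9 in PFAS 8, where 3.06% and 2.1% of all genes tested were called higher. Outside the list and picked from the called genes after their values were seen, the DNA repair genes FANCD2 (-0.61 ± 0.17) and XRCC5 (-0.58 ± 0.14), the condensin NCAPD2 (-0.37 ± 0.10) and the spindle genes haus4 (-0.74 ± 0.20) and SPDL1 (-0.42 ± 0.09) were also called higher in PFAS 9. These 5 were not followed with libraries left out. Other genes of their families were not counted, so they do not add to the list's direction.

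Genes of cholesterol synthesis also leaned to PFAS 9. Of 28 tested, 22 had a log2 fold change below 0, the median was -0.39, and 2 were called. FDPS (ENSDARG00000040890), which makes farnesyl diphosphate, was at 27.7, 27.9, 25.9 and 27.7 CPM in PFAS 8, 36.7, 47.9, 41.7 and 35.7 CPM in PFAS 9 and 28.5 to 41.1 CPM in control (-0.57 ± 0.12, adjusted p = 0.00219). LSS (ENSDARG00000061274), lanosterol synthase, was nearly undetected in PFAS 8, at 0.114, 0.078, 0.12 and 0 CPM, and at 1.31, 1.66, 1.03 and 0.515 CPM in PFAS 9 (-3.71 ± 0.70, adjusted p = 0.000479). No PFAS 8 library reached the PFAS 9 libraries in either gene. Against control, 6 of the 28 genes were called lower in PFAS 8 and 0 in PFAS 9, where 1.74% and 3.84% of all genes tested were called lower. Summed cholesterol synthesis transcripts were at 197.7 to 222.9 CPM in PFAS 8 and 232.4 to 313.2 CPM in PFAS 9, with 228.5 to 294.6 CPM in control.

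Among the largest differences outside these groups, si:ch211-250g4.3 (ENSDARG00000092945), a gene without a described product in the files, was at 26.8, 22.3, 30.4 and 15.5 CPM in PFAS 8 and 3.94, 7.76, 3.61 and 6.5 CPM in PFAS 9 (2.14 ± 0.32, adjusted p = 4.45e-06). si:ch211-227m13.1 differed by 1.77 ± 0.34. si:dkey-65b12.6 was at 65.4, 66.3, 47.8 and 65.9 CPM in PFAS 8 and 24.3, 19.96, 19.3 and 25.7 CPM in PFAS 9, all below the control range of 69.8 to 89.8 CPM (1.46 ± 0.13, adjusted p = 5.49e-13). s100a11, a calcium-binding protein, was at 20.9, 19.1, 20.6 and 14.5 CPM and 6.44, 8.42, 5.13 and 7.33 CPM (1.46 ± 0.18, adjusted p = 1.8e-08), again with PFAS 8 above in each library. gpx3, a secreted glutathione peroxidase, differed by 1.4 ± 0.26 and the cytokine receptor il20ra by 1.42 ± 0.37, the latter without a call when PFAS 8 replicate 1 or 3 or PFAS 9 replicate 1 or 3 was left out. In the other direction, krt1-19d, a type I keratin, was at 3.51, 1.76, 1.74 and 2.29 CPM in PFAS 8 and 4.55, 7.34, 6.06 and 6.11 CPM in PFAS 9 (-1.35 ± 0.28, adjusted p = 0.00197). ACP5, the tartrate-resistant acid phosphatase of osteoclasts and macrophages, was at 21.4, 18.2, 16.5 and 21 CPM and 31.4, 66.6, 50.4 and 36 CPM (-1.26 ± 0.29, adjusted p = 0.00879), and without PFAS 9 replicate 2 at -1.02 with an adjusted p of 0.0865. MUSTN1, a small nuclear protein of muscle and skeleton (-1.37 ± 0.35, lost without any of 4 libraries), si:dkeyp-1h4.9 (-2.07 ± 0.53, lost without any of 6) and si:dkey-238c7.13 (-3.02 ± 0.60) were further genes higher in PFAS 9. A few transcripts picked after their values were seen were counted in PFAS 8 and had no count in any PFAS 9 library. With 3 counts over the group as the floor, zgc:163083 was at least 21.7-fold higher in PFAS 8 (57 counts over its 4 libraries) and the potassium channel kcnc3b at least 8.74-fold (23 counts), and the collagen COL8A1 had 27 counts. The call of zgc:163083 was kept when any of the 8 libraries was left out, while kcnc3b lost its call without any of 6 libraries (PFAS 8 replicates 3 and 4 and each PFAS 9 replicate, adjusted p = 0.0505 to 0.115) and COL8A1 without any of 5 (PFAS 8 replicate 4 and each PFAS 9 replicate, adjusted p = 0.071 to 0.106).

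The remaining lists held few called genes. For retinoids these were 3 of 35, with RBP2, a cellular retinol-binding protein, at 6.63, 6.94, 8.9 and 7.14 CPM in PFAS 8 and 18.6, 15.6, 10.1 and 18 CPM in PFAS 9 (-1.08 ± 0.23, adjusted p = 0.00264). Control spanned 5.82 to 23.2 CPM with a median of 16.3 CPM, and Control-A replicate 5 was its lowest library. rbp4l (-0.69), a retinol-binding protein that is also on the photoreceptor list, was higher in PFAS 9 and RBP4 (0.47), the serum carrier of retinol made by the liver, was higher in PFAS 8. Of 47 keratin and epidermal genes, 5 were called, with krt18b (0.62), AGR2 (0.6) and krt8 (0.26) higher in PFAS 8 and krt92 (-0.69) and anxa1b (-0.71) higher in PFAS 9. Glycolytic LDHA, lactate dehydrogenase, was at 116, 124, 122 and 109 CPM in PFAS 8 and 84, 73.2, 70.7 and 67.6 CPM in PFAS 9 (0.67 ± 0.09, adjusted p = 9.75e-07), and with PKM (0.47) and NDRG1 (0.79) it made 3 called of 52 on the list of hypoxia and glycolysis. The muscle enolase ENO3 and the glycolytic enzyme GAPDH, also called higher in PFAS 8, were counted on the sarcomere list instead. SLC43A2, a transporter of large neutral amino acids, was the single called gene of 48 in its list, at 512, 323, 409 and 418 CPM in PFAS 8, 286, 279.8, 221 and 279 CPM in PFAS 9 and 77.6 to 233 CPM in control (0.64 ± 0.17, adjusted p = 0.0322). Single called genes on further lists were GCG, proglucagon (1.08), next to RBP4 on the liver, gut and pancreas list of 42, the orphan receptor NR4A2 (0.77) among 41 immediate early genes, the clock gene nr1d2a (0.89) of 39, IGFBP2 (0.56) of 51 fasting and growth genes, the lens crystallin crygm2d4 (0.4) of 44, the synaptic neurexin nrxn1a (0.28) of 87 and the mitochondrial mt-nd4l (-0.59) of 13. On the list of xenobiotic oxidases and aryl hydrocarbon receptor partners, the 1 called gene of 40 was the forkhead factor foxf2a (0.52), and no cytochrome P450 gene was called. Leaving out single libraries ended the calls of RBP4, rbp4l, krt18b, krt8, anxa1b, PKM, NDRG1, SLC43A2, nr1d2a, crygm2d4 and nrxn1a at least once. IGFBP2 lost its call without each of the 8 libraries, and in 20 of 29 alternatives in all. The retinoid list held 1 called gene without PFAS 8 replicate 3 or PFAS 9 replicate 3, and the hypoxia list held 1 without the latter. Over the 38 lists, 96 of 1622 tested genes were called, and 30 lists held at least 1 called gene. Of all genes tested, 1.33% were called. The lists were chosen with earlier results of these data known, so no excess of calls is read from them. Where a list held a single called gene, no direction of the list is read from that call.

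**Figure D4:**
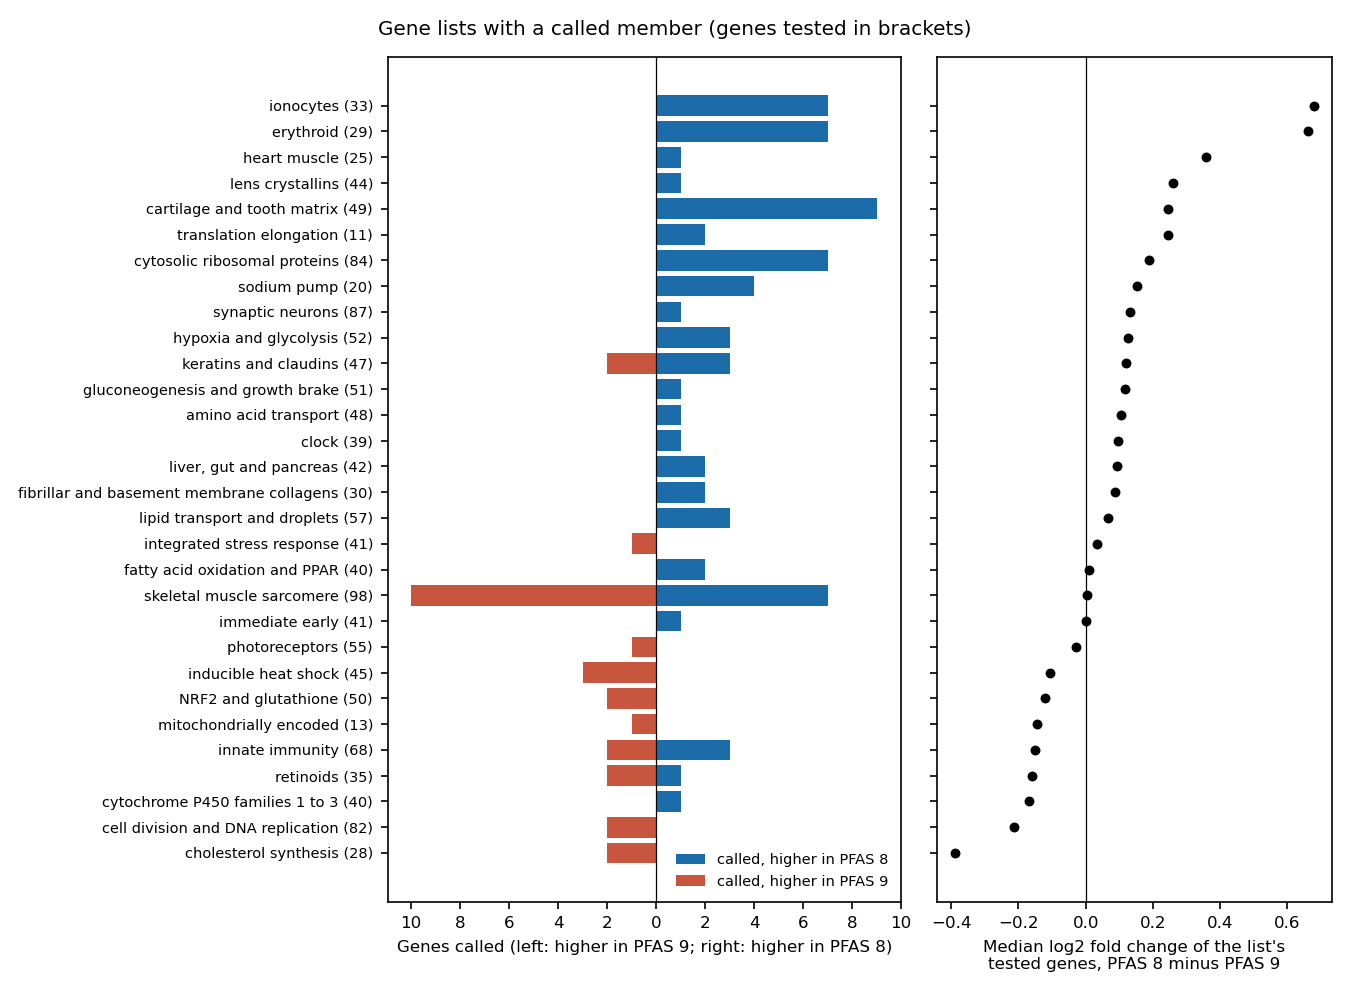
Left, the number of called genes on each of the 30 lists with a called gene, drawn to the right where higher in PFAS 8 and to the left where higher in PFAS 9, with the number tested in brackets. Right, the median log2 fold change of each list's tested genes. The sarcomere list has calls on both sides, 7 and 10, and the ionocyte and erythroid lists have the largest medians, 0.68 and 0.66.

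In 8 lists with 293 tested genes, edgeR called 0 genes, DESeq2 called 6, and 45 had an unadjusted p below 0.05. Their median log2 fold changes lay between -0.11 and 0.22. These were the lists of retinal progenitors, endoplasmic reticulum chaperones, p53 targets, Notch and her genes, neural progenitors and glia, peripheral neurons and hair cells, pigment cells, and vessels. For cdh5, the cadherin of endothelial cells, the difference was 0.41 with a 95% interval of 0.18 to 0.64 and an adjusted p of 0.0502. The p53 target TP53INP1 differed by -0.36 (interval -0.57 to -0.15, adjusted p = 0.0703) and BAX, which opens the outer mitochondrial membrane in apoptosis, by -0.33 (interval -0.53 to -0.12, adjusted p = 0.106). For her4.1, a Notch target, it was 0.40 (interval 0.12 to 0.67, adjusted p = 0.174), and for the glial glutamate transporter SLC1A2 it was 0.29 (interval 0.13 to 0.44, adjusted p = 0.0531). These intervals leave out a difference of 1 log2 unit for each of these 5 genes, but do not speak for the other genes of the lists. DERL3, on the list of endoplasmic reticulum chaperones, had means of 0.186 CPM in PFAS 8 and 0.64 CPM in PFAS 9. Its difference of -1.69 had an interval of -3.22 to -0.16 (adjusted p = 0.392, edgeR), which includes 1 log2 unit.

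Each chemical was also set against Control-A in the same fit. PFAS 8 gave 841 called genes (3.84% of genes tested), 460 higher (2.1%) and 381 lower (1.74%) than control, and PFAS 9 gave 1512 (6.9%), 671 higher (3.06%) and 841 lower (3.84%). Both comparisons use the same 6 control libraries, so the following values are set side by side and no agreement between them is read. Among the 193 genes higher in PFAS 8 than in PFAS 9, 58 were called higher in PFAS 8 than in control and 105 were called lower in PFAS 9 than in control, with 4 in both of these counts and 34 in neither chemical. Among the 99 genes higher in PFAS 9, 59 were called higher in PFAS 9 than in control, 14 lower in PFAS 8 than in control, and 26 in neither. The sodium pump gene atp1a1a.2 was among the 4, at 0.6 in PFAS 8 (adjusted p = 9.99e-06, edgeR) and -0.62 in PFAS 9 (adjusted p = 4.31e-06). ABCA1 and MYLIP were called against control in PFAS 8 alone, at 1.2 and 1.3, and were at 0.04 and -0.11 in PFAS 9. The globin hbae3 was at 0.14 in PFAS 8 (adjusted p = 0.794) and -1.0 in PFAS 9 (adjusted p = 3.01e-05). RHBG was at 0.0 in PFAS 8 and -0.72 in PFAS 9, and lyz at 0.14 and -0.76, in both cases with a call against control in PFAS 9 alone. Of the genes higher in PFAS 9, ctslb.4 was at 0.57 in PFAS 8 (adjusted p = 0.0734) and 2.05 in PFAS 9 (adjusted p = 2.01e-13), prdx1 at 0.21 and 1.06, and TNNI2 at -0.4 and 1.31. RBP2, LSS and krt1-19d differed from control in PFAS 8 alone, at -1.01, -3.28 and -1.76, against 0.07, 0.43 and -0.4 in PFAS 9. Without Control-A replicate 5, PFAS 8 gave 677 and PFAS 9 gave 1258 called genes. Of the genes named by rule, si:dkey-65b12.6, GCG, ATP1B1, foxf2a and nrxn1a then lost their call in PFAS 8, and STC1 and SLC43A2 lost theirs in PFAS 9. The count of PFAS 8 was 549 without its replicate 1, and that of PFAS 9 was 883 without its replicate 2.

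**Figure D5:**
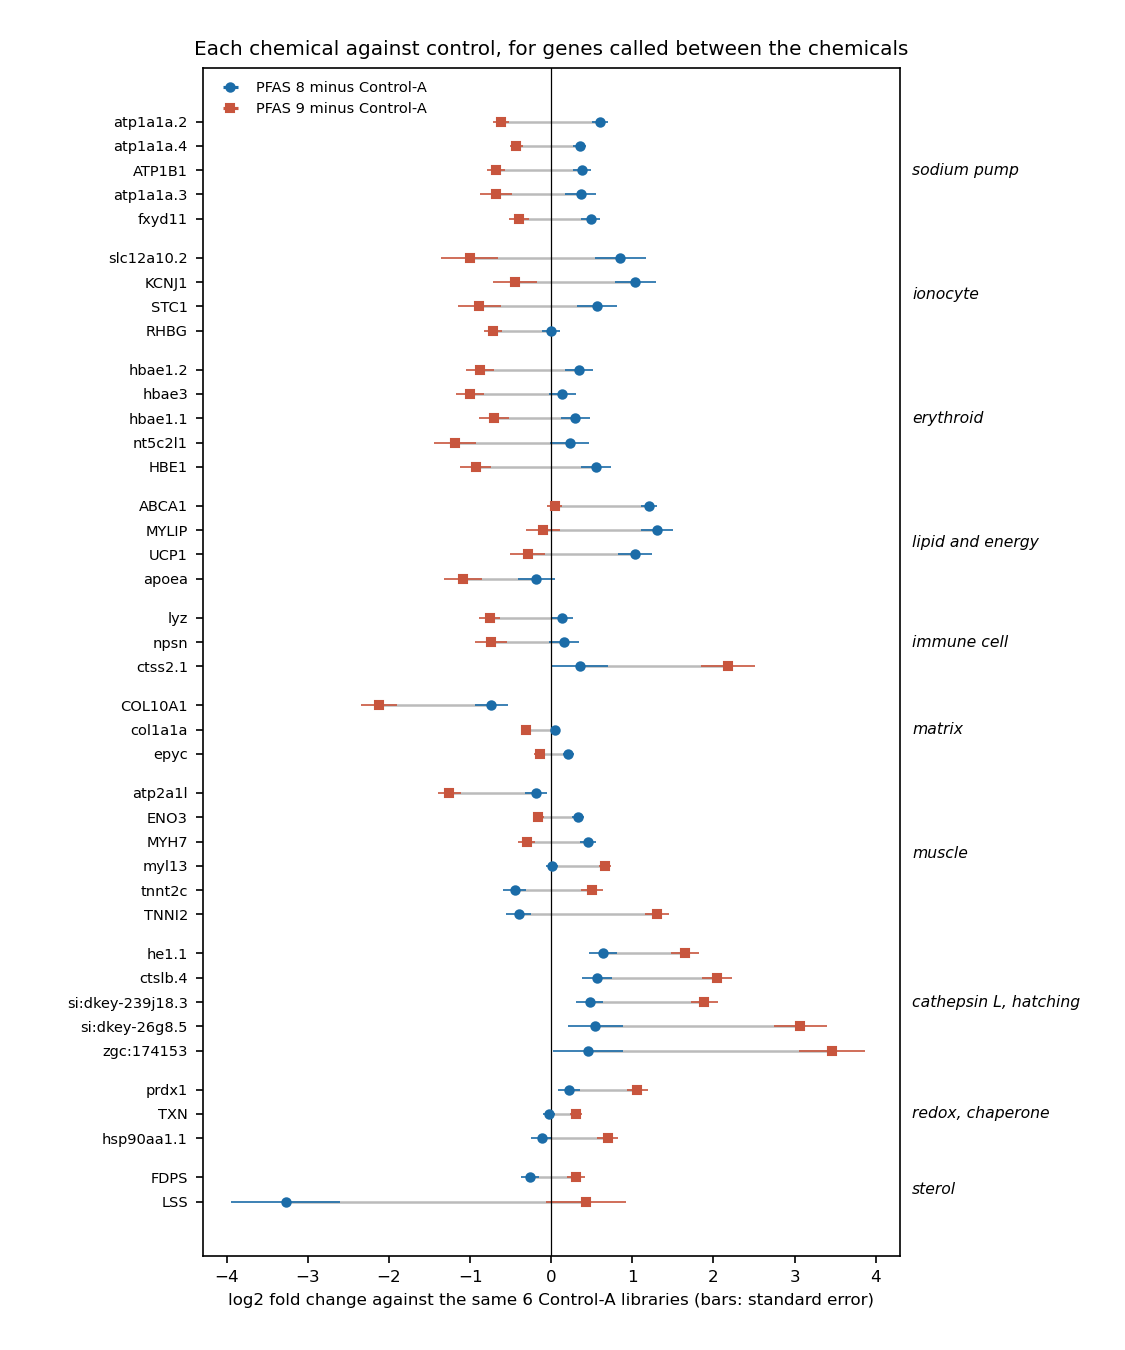
Log2 fold change of each chemical against the same 6 Control-A libraries (x axis, bars show the standard error) for genes called between the chemicals, grouped by role. atp1a1a.2 has PFAS 8 to the right of 0 and PFAS 9 to the left, at 0.60 and -0.62, ABCA1 has PFAS 8 at 1.2 with PFAS 9 near 0, and the cathepsin L genes have PFAS 9 far to the right.

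Between pairs of the 6 chemicals numbered PFAS 8 to PFAS 13, compared in the same fit, PFAS 8 against PFAS 9 gave the fewest called genes of the 15 pairs, 292. The next lowest was PFAS 11 against PFAS 13 with 874, and the highest was PFAS 10 against PFAS 12 with 4044. PFAS 8 and PFAS 9 against PFAS 13 gave 933 and 947. Doses differed throughout, so these counts are given side by side without a test of their order. The paper numbered its chemicals so that those up to PFAS 13 rise in their count of differentially expressed genes. PFAS 8 and PFAS 9 were thus the lowest of these 6 in the paper's counts against control. A lower-numbered chemical that clustered with PFAS 8 and PFAS 9 in the paper was not among those compared. No likeness particular to this pair is therefore read from the ranking.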

How the data were processed

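Gene counts were deposited by the authors as a table of raw, whole-number counts per Ensembl gene, with a column per library and sequencing run. Per the submitters' processing notes and the study's methods, QuantSeq 3′ libraries were aligned with STAR to GRCz11, counted by strand with HTSeq for uniquely placed reads, and tested with DESeq2. The 2 runs of each library were summed here.

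Counts of 69 libraries (PFAS 5 replicate 1 left out, as in the study) were fitted by group in edgeR 4.0.16 (R 4.3.3) with TMM scaling, after removal of low genes by filterByExpr (count limit 10, total limit 15), and PFAS 8 minus PFAS 9 was tested with glmQLFTest. p values were adjusted by Benjamini-Hochberg over 21928 genes. The procedure was tested on simulated data. DESeq2 1.42.0, other scalings, filters, runs, blocks and left-out libraries were alternatives, with Control-A libraries left out as alternatives added after seeing the data. Replicates are separate pools of 10 embryos, some from the same day, so p values rest on the spread between pools. That spread was estimated over the groups of all 69 libraries together, not from the PFAS 8 and PFAS 9 pools alone. These groups include those of the other exposure round, which had a single collection day. Collection days are those of the study's sampling sheet.

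Genes were named by a rule: among called genes with a symbol, a mean log2 CPM over 1 and no overlap between groups, the 12 largest rises and 12 largest falls, and on each of 38 gene lists up to 4 called genes of smallest p, or up to 2 genes as values where none was called. Genes named beyond it are given as chosen after their values were seen, or as the other called genes of a list. Members, lists and rule were chosen with earlier results of these data known. Ensembl identifiers were paired with symbols for 29201 of 32520 genes.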

Additional observations from a re-analysis of the deposited data

Results flagged for a closer look

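Groups of libraries were examined for the named genes, the total count, the share of ENSDARG00000080337 and the mt- share. In 18 of 264 groups, all for named genes, 1 library stood far from the rest by Dixon's criterion. Chance alone meets it in about 1 group in 20. Among the PFAS 8 libraries, replicate 3 was lowest for si:dkey-65b12.6 (47.8 CPM, others 65.4 to 66.3), FDPS (25.9 CPM, others 27.7 to 27.9) and MMP9 (0.962 CPM, others 2.3 to 2.44), and highest for hsp90aa1.1 (66.3 CPM, others 53.2 to 55.4). Replicate 4 was highest for gpx3, the secreted glutathione peroxidase (5.66 CPM, others 4.33 to 4.53), and replicate 1 for IGFBP2, which binds insulin-like growth factors (18.7 CPM, others 14.3 to 14.7).

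Among the PFAS 9 libraries, replicate 2 was highest for atp1a1a.4 (64.1 CPM, others 50.8 to 52.2), ENO3 (469 CPM, others 405 to 415) and ctss2.1 (23 CPM, others 5.13 to 7.14), and without it the call of ctss2.1 was lost. Replicate 3 was lowest for atp1a1a.2 (17.3 CPM, others 25.9 to 27.6) and for SLC43A2 (221 CPM, others 279 to 286), and replicate 4 was highest for PDK2 (8.11 CPM, others 6.15 to 6.37).

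Among the controls, replicate 5 was lowest for IGFBP2 (9.7 CPM, next 13.8), RBP4 (112 CPM, next 197), COL1A1 (874 CPM, next 945) and ACP5 (5.01 CPM, next 17.2). Control-A replicate 1 was highest for EEF1G (1160 CPM, next 1060) and replicate 6 for prdx1 (49.7 CPM, next 36.5).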

How the results depend on the processing

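Among 142 genes followed through 29 alternatives, 0 changed direction and 4 had no adjusted p in DESeq2. Some genes were not tested in every alternative, and 62 lost their call in none of those that gave them an adjusted p. With 1 of the 8 libraries left out at a time, 76 of the 142 kept their call each time and 66 lost it at least once. The 292 calls became 191 with all 70 libraries, 180 with the shared collection days, 189 with run 66 alone and 455 with DESeq2. Of the 292, DESeq2 shared 285, all 70 libraries 191, run 66 alone 175 and the shared days 150. A fit of the 8 libraries alone, with the spread taken from them only, called 211 genes. Of these, 175 were among the 292, and 31 of the followed genes lost their call. Without PFAS 9 replicate 3, 148 of the 292 were kept. With the shared days alone, 54 of the 142 followed genes lost their call. Leaving out single libraries, controls included, gave 153 to 305 called genes, 99 to 206 higher in PFAS 8, 54 to 102 higher in PFAS 9, 549 to 852 for PFAS 8 against control and 883 to 1531 for PFAS 9 against control. The genes higher in PFAS 8 (193) became 123 with library totals only, 112 with shared days and 126 with run 66. Those higher in PFAS 9 (99) became 270 with library totals only, 58 with all 70 libraries, 63 with run 66 and 188 with DESeq2. The count of PFAS 8 against control (841) became 558 with all 70 libraries and 549 with shared days. The cause of these shifts was not tested. Calls with an absolute log2 fold change over 1 stayed within 1.5 times of 83 throughout.

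Replicate numbers name the libraries and do not pair them. Deviations of libraries with the same number correlated at 0.102, -0.006, 0.23 and 0.12 for replicates 1 to 4 (mean 0.11, against -0.04 for other numbers), so that 3 of 4 were over 0.1 and replicate 2 was not. A fit of the 8 libraries called 211 genes without a replicate block and 319 with one, and 220 of the 319 were among the 292. Not every library correlated best with that of its own number. At about 15040000 reads in the shallowest library, genes of a few counts could be compared only against a floor.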
